A study of Rattus norvegicus with 6 samples.

Results

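The chemokines, interleukins and tumour necrosis factor (TNF) superfamily, with their receptors, were examined in rat synovial fibroblast-like cells. Members were taken by symbol: names that begin with Ccl, Ccr, Cxcl, Cxcr, Il, Tnfsf or Tnfrsf followed by a digit, together with Tnf, Cx3cl1, Lif, Osmr, Lifr and Csf1. This gave 150 genes of 16499 in the table, and the most abundant transcript row stood for each gene. Of these, 44 reached 1 CPM (counts scaled to a library of fixed size) in both replicates of at least 1 group: 39 in FBS, 41 in MS- and 39 in MS+. Because the rule used symbols alone, it did not use any measured value beyond the choice of row.

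Cells grown from the joint lining of female Wistar rats with arthritis, taken before any therapy, were divided over 3 culture media. Each medium had 1 library labelled RA1 and 1 labelled RA2, which gave 6 libraries of polyadenylated RNA. The FBS medium held fetal bovine serum, the MS- medium held serum of untreated animals, and the MS+ medium held serum drawn after 18 days of mechanical stimulation by needle, which the labels call acupuncture. The arthritis was induced with collagen, and every library came from these same arthritic cells, the FBS controls included. The study describes the MS- serum as drawn from untreated arthritic animals and also as drawn before any therapy began, while a label of the MS- libraries speaks of healthy rats. The day of drawing, and with it the course of disease, therefore cannot be told apart from stimulation in MS+ against MS-. The number of animals behind each serum in culture was not given. RA1 and RA2 are called cultures here and were taken as the same cells in every medium; no label says that each came from 1 rat. P-values of the main test therefore measured how unevenly 2 cultures responded to the media, not a spread between sera. FBS differs from the other media in species and age of the donor as well, so those differences cannot be told apart from treatment in a comparison with FBS. Total reads were 5463316 to 5991889 per library, and a library with 3 reads of a gene, used here as the floor, had it at 0.491 to 0.551 CPM. This floor allows for counting error alone.

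Chemokines are small secreted proteins that direct the migration of leukocytes through G protein-coupled receptors. Interleukins and the related factors Lif and Il6 signal through receptor chains that are often shared, such as Il6st (gp130), and TNF superfamily ligands act on trimeric receptors that feed cell death or NF-kappaB signalling. In the arthritic joint, synovial fibroblasts are known both as targets of TNF and interleukin-1 and as producers of interleukin-6 and chemokines.

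The markers fitted a fibroblast culture. Of 13 fibroblast markers, 11 passed 1 CPM in both libraries of a group, among them Col1a1, Pdgfra, Thy1 and Prg4, whereas Dcn and Lum did not. The macrophage list passed with 1 of 13 measured markers (Cd14) and summed to 14.1 to 20.9 CPM, and 7 of its genes, Ptprc and Itgam among them, were at 0 in every library. No lymphocyte marker of 6 passed, and both neutrophil markers (S100a8, S100a9) were at 0. Of 3 endothelial markers Tek alone passed. Smooth muscle and pericyte markers passed with 3 of 4 (2318 to 3164 CPM summed), and skeletal muscle markers with 3 of 7 (772 to 1208 CPM). The smooth muscle and pericyte sum was 2318 to 2586 CPM in FBS and 3010 to 3164 CPM in both rat sera. The fibroblast sum was 93833 to 97524 CPM in FBS, 75999 to 80526 CPM in MS- and 84156 to 86747 CPM in MS+. The part of either sum in the differences from FBS was not tested. These are bulk samples, in which fewer cells of a type and less RNA per cell cannot be told apart.

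Receptors were detected more widely than ligands among the interleukins: 19 of 37 interleukin receptor genes passed 1 CPM, against 5 of 34 interleukin ligands. For chemokines the order was the other way, with 7 of 33 ligands (Ccl2, Ccl7, Ccl9, Cx3cl1, Cxcl1, Cxcl12 and Cxcl16) and 1 of 17 receptors (Cxcr7). The TNF superfamily passed with 3 of 9 ligands and 7 of 15 receptors. Csf1, the growth factor of macrophages, passed, as did 1 of 4 soluble inhibitors (Il18bp, which binds interleukin-18). Of the other 106 genes, 58 had no read in any library, 35 had at most 3 reads in any library, and 13 had more than 3 reads in some library without passing.

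Tnf and Il1b, the ligands most linked to arthritis, had no read in any of the 6 libraries, and Ccl20 had 1 read in all. At this depth, that allows up to 0.491 to 0.551 CPM per library for a gene without reads. Close to the limit on the inside stood Ccl9 (9 reads in MS+ replicate 1 and 6 in replicate 2) and Tnfsf13 (0.551 to 1.99 CPM). Close to it on the outside stood Cxcl13, with 0 reads in both FBS libraries, 0 and 6 in MS-, and 2 and 11 in MS+. Cxcl3, a near copy of Cxcl1, had 0 reads in FBS, 2 and 1 in MS-, and 11 and 0 in MS+, so its reads in MS+ came from culture RA1 alone.

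**Figure D1:**
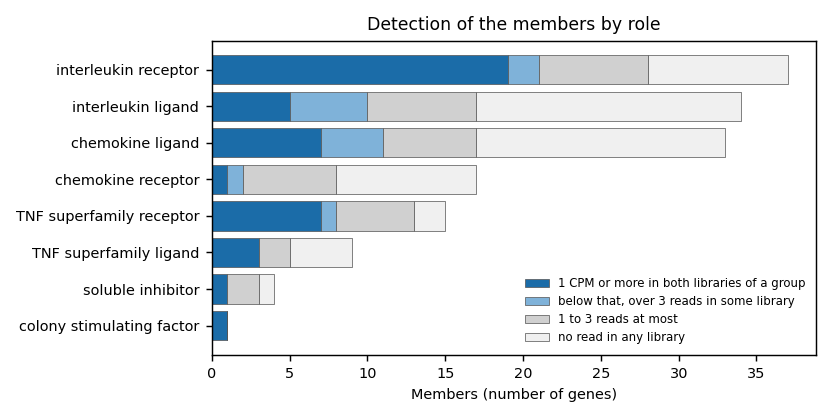
Number of member genes (horizontal axis) by role (vertical axis), stacked by detection over the 6 libraries. Interleukin receptors passed 1 CPM for 19 of 37 genes and interleukin ligands for 5 of 34, and 9 of 17 chemokine receptors and 17 of 34 interleukin ligands had no read.

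The 3 comparisons were made with limma on log2(CPM + 1), with the culture as a block, and p-values were adjusted over all 9820 transcript rows that passed 1 CPM; changes are log2 fold changes on this scale with their SE, which understates the change of low genes. MS+ and MS- were each compared with FBS and so share the FBS libraries. In MS+ against FBS, 16 of the 44 tested members passed (36.4%, 9 higher and 7 lower), beside 28.2% of all tested rows (14.4% higher and 13.9% lower). Among the 9 was Ccl9, which entered the tested members through MS+ alone. In MS- against FBS, 15 members passed (34.1%, 10 higher and 5 lower), beside 20.5% of all rows (10.8% higher and 9.63% lower). In MS+ against MS-, 4 members passed (9.09%, 2 higher and 2 lower), beside 10.1% of all rows (5.27% higher and 4.78% lower), so that the members' share lay near the background there. Every call had the same direction in both cultures, which a blocked test with 2 cultures largely fixes in advance. Without the culture as a block, 6, 4 and 0 members passed in the 3 comparisons, in the same order, beside 9.61%, 4.81% and 0.0204% of all rows. On the recovered reads with the block, edgeR called 15, 17 and 6 members (29.1%, 21.1% and 10.3% of all rows) and DESeq2 called 11, 6 and 1 (11.9%, 8.17% and 2.79%), while edgeR without the culture term called 6, 4 and 0 (9.61%, 4.73% and 0.0305%). By thresholds like those of the study, namely a mean of 1 CPM or above, a change of at least 2-fold and an unadjusted p under 0.05, 6, 7 and 1 members passed (5.6%, 3.88% and 1.38% of all rows), and by an unadjusted p under 0.05 alone 23, 18 and 12 did (39.2%, 32.3% and 24.6%).

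Against FBS, all 7 tested chemokine ligands passed in MS+ (5 higher, 2 lower), beside 28.2% of all rows, and 4 of 7 passed in MS- (3 higher, 1 lower), beside 20.5%. Ccl9, among the 5, passed the 1 CPM filter through MS+ alone, so its rise there is not independent of the filter. Without the block 4 of 7 passed in each, beside 9.61% and 4.81% of all rows. In MS+ against MS-, 1 of 7 passed, beside 10.1% of all rows, and 0 without the block, beside 0.0204%. Members went both ways, and their median log2 change was 0.05 in MS+ and 0.06 in MS- against FBS, beside 0.00078 and 0.014 over all rows; it was 0.21 in MS+ when the filter was set at 5 CPM.

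Cxcl1, which attracts neutrophils through the receptor Cxcr2, rose in steps from FBS to MS- to MS+. It lay at 7.86 and 6.30 CPM in FBS, 30.2 and 24.8 CPM in MS-, and 84.7 and 44.6 CPM in MS+ (replicates 1 and 2 throughout), with means of 7.08 ± 1.1, 27.5 ± 3.83 and 64.6 ± 28.3 (SD, n = 2). No group overlapped another. The change was 2.96 (SE 0.17) in MS+ against FBS (limma adjusted p = 5.13e-09), 1.82 (SE 0.17) in MS- against FBS (adjusted p = 1.4e-06) and 1.14 (SE 0.17) in MS+ against MS- (adjusted p = 0.000569). The first of these stood without the block (adjusted p = 0.00515), as did the second (0.0219), but MS+ against MS- did not (0.181). The step from MS- to MS+ was 1.46 in culture RA1 and 0.82 in culture RA2, and without MS- replicate 1 it missed the threshold (0.98, adjusted p = 0.074). In rn4 the gene lies at chr14:18690339-18692118 on the minus strand. Cxcl1 has close copies, Cxcl2 and Cxcl3 among them, between which reads can be split, so its level is uncertain to that extent.

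Ccl2 and Ccl7, neighbouring monocyte chemoattractants that act through Ccr2, were both higher in the rat sera and highest in MS-. Ccl7 lay at 1.64 and 1.16 CPM in FBS, 10.6 and 12.8 CPM in MS-, and 6.13 and 7.34 CPM in MS+, with no overlap between groups. It rose by 2.41 (SE 0.23) in MS- (limma adjusted p = 2.29e-06; 0.0033 without the block) and by 1.69 (SE 0.23) in MS+ (adjusted p = 6.53e-05; 0.00903 without the block), both against FBS. Ccl2 lay at 10.1 and 7.46 CPM in FBS, 22.3 and 38.0 CPM in MS-, and 13.3 and 23.7 CPM in MS+, where the MS- and MS+ ranges overlapped and FBS stood below both. It rose by 1.63 (SE 0.23) in MS- (adjusted p = 0.000104; 0.0455 without the block) and by 0.95 (SE 0.23) in MS+ (adjusted p = 0.00603). The MS+ call of Ccl2 did not stand without the block (adjusted p = 0.125) or without FBS replicate 2 (0.37, adjusted p = 0.20). The change was 0.36 in culture RA1 and 1.54 in culture RA2. MS+ was lower than MS- in both cultures, by 0.70 and 0.66 for Ccl2 and by 0.70 and 0.73 for Ccl7 on the log2 scale. Neither passed the main test (limma adjusted p = 0.0747 and 0.0637). Both passed with limma-voom and with edgeR, each with the block, but not with DESeq2 or without the block. The genes lie 9219 bases apart in rn4, Ccl2 at chr10:70256263-70258061 and Ccl7 at chr10:70267281-70269131, both on the plus strand, and belong to a family of similar genes.

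Ccl9, a CC chemokine for myeloid cells, had no read in either FBS library. It lay at 0.732 and 0.362 CPM in MS- and 1.62 and 1.10 CPM in MS+, and the mean of MS+ was 2.75 times the FBS floor of 3 reads per library. MS+ alone carried Ccl9 past the 1 CPM filter, so its rise there is not independent of the filter. The fitted change in MS+ against FBS passed (limma adjusted p = 0.00947, and 0.0499 without the block), but not without FBS replicate 1 (0.0692) or MS+ replicate 1 (0.0837). In MS-, the mean was 1.11 times that floor, and the main test did not pass (limma adjusted p = 0.201). The MS- change did pass with a pseudocount of 0.1, with limma-voom and with edgeR, each with the block. A rise confined to MS+ is therefore not shown.

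Cxcl16, a transmembrane chemokine and scavenger receptor, lay at 3.60 and 5.14 CPM in FBS, 5.49 and 3.98 CPM in MS-, and 9.91 and 7.16 CPM in MS+. MS+ stood above the other groups, which overlapped. It rose by 0.83 (SE 0.25) in MS+ against FBS (limma adjusted p = 0.0203), a call that did not stand without the block (0.101), without FBS replicate 1 (0.42, adjusted p = 0.367) or without MS+ replicate 1 (0.61, adjusted p = 0.178). MS+ against MS- gave 0.73 (adjusted p = 0.0737). The transcript overlaps Zmynd15 in the annotation, and strand use in the counting was not stated, so its reads are uncertain.

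The homeostatic chemokine Cxcl12 went the other way. It retains haematopoietic cells through Cxcr4 and is also bound by the scavenger receptor Cxcr7 (Ackr3). Cxcl12 lay at 24.6 and 37.5 CPM in FBS, 8.23 and 13.0 CPM in MS-, and 9.19 and 13.4 CPM in MS+, so that the rat sera overlapped each other and lay below FBS. It fell by 1.37 (SE 0.16) in MS+ (limma adjusted p = 1.43e-05; 0.0369 without the block) and by 1.46 (SE 0.16) in MS- (adjusted p = 9.11e-06; 0.0444 without the block). The difference between MS+ and MS- was 0.09 (SE 0.16; adjusted p = 0.79). The row used (rn4 chr4:153503576-153510346, plus strand) held 95.7% of the reads of the symbol, and the longer transcripts of Cxcl12 share its start, so reads common to them could be lost.

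Cxcr7 was the only one of the 17 chemokine receptor genes that passed 1 CPM. It lay at 257 and 171 CPM in FBS, 162 and 114 CPM in MS-, and 145 and 97.5 CPM in MS+. Within each culture FBS was highest and MS+ lowest. It fell by 0.82 (SE 0.08) in MS+ (limma adjusted p = 4.1e-06) and by 0.63 (SE 0.08) in MS- (adjusted p = 6.45e-05), both against FBS, with 0.83 and 0.81 in the 2 cultures for MS+. Across cultures, FBS replicate 2 (171 CPM) stood little above MS- replicate 1 (162 CPM), and neither call stood without the block (0.109 and 0.247).

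Cx3cl1 (fractalkine), which tethers monocytes that carry Cx3cr1, lay at 5.73 and 15.6 CPM in FBS, 4.57 and 7.23 CPM in MS-, and 2.70 and 5.51 CPM in MS+. The libraries of RA2 were the higher ones in every medium. It fell by 1.11 (SE 0.23) in MS+ against FBS (limma adjusted p = 0.00216, and 0.19 without the block), and gave -0.64 (SE 0.23) in MS- (adjusted p = 0.0632). The MS- change passed with limma-voom and with edgeR, each with the block, but not without the block.

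**Figure D2:**
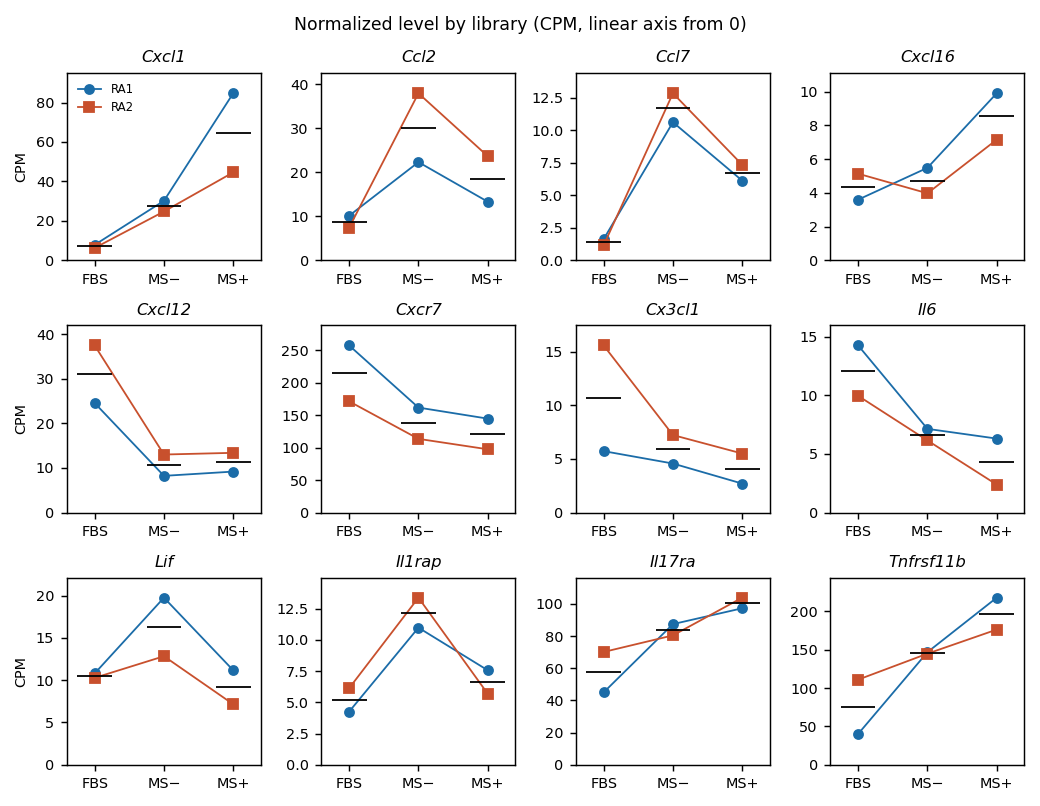
Level of 12 members in CPM (vertical axes, linear from 0) by medium (horizontal axes), with lines joining the 3 libraries of a culture (circles RA1, squares RA2) and bars at the mean of the 2 libraries. Cxcl1 reaches 84.7 and 44.6 CPM in MS+ from 7.86 and 6.30 CPM in FBS, while Cxcl12 and Cxcr7 are lower in both rat sera than in FBS within each culture.

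The promoters of members that moved are shown so that the sequence can be read beside these values. They are RefSeq sequences of rat build GRCr8, 250 bases before the start site, 5′ to 3′ on the strand of the gene. Capitals mark matches to the NF-kappaB motif and to the AP-1 motif TGANTCA. Cxcl1 is at chr14:17479322-17479571 (minus strand), Ccl7 at chr10:67513845-67514094 (plus), Il6 at chr4:5894576-5894825 (minus) and Cxcl12 at chr4:152060531-152060780 (plus).
Cxcl1: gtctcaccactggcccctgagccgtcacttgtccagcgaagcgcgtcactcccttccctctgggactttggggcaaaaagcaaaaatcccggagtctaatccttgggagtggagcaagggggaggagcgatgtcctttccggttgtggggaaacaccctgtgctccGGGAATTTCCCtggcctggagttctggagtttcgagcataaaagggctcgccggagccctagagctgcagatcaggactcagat
Ccl7: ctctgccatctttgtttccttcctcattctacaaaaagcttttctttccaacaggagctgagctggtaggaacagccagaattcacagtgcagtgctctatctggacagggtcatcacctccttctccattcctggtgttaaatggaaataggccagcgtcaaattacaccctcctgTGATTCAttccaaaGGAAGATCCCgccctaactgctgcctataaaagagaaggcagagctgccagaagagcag
Il6: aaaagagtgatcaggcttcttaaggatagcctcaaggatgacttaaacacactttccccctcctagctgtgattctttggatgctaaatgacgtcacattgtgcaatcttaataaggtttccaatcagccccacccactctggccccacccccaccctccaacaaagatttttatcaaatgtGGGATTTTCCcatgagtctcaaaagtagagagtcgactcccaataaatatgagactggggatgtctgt
Cxcl12: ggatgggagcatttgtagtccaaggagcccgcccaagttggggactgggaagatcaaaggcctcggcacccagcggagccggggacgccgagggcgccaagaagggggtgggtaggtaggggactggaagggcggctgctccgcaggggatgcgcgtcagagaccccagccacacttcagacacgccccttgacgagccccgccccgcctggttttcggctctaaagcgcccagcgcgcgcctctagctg

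Cxcl1 held 2 overlapping NF-kappaB matches, at 84 and 83 bases before the start site. Ccl7 held 1 NF-kappaB match 59 bases before the start and 1 AP-1 match 73 bases before it, and Il6, whose level fell, held 1 NF-kappaB match 68 bases before it. Cxcl12 held none. Over the 300-base windows from 250 bases before to 50 after the start, searched on both strands, 8 of the 34 tested members with an entry held the NF-kappaB motif (Ccl7, Ccl9, Cxcl1, Il1r1, Il1rap, Il4ra, Il6 and Il6st), and 7.6% of 27457 rat promoters did. The AP-1 motif was in 5 of 34 members (7.33% of promoters) and the STAT motif TTCNNNGAA in 4 (8.68%), with 1 STAT match 32 bases after the start of Ccl7. A match is a run of letters, not a measured binding site.

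Among interleukin-6 family genes, the ligand Il6, the cytokine of fever and the acute phase, was lower in the rat sera. It lay at 14.2 and 9.95 CPM in FBS, 7.13 and 6.15 CPM in MS-, and 6.31 and 2.39 CPM in MS+, with FBS above both rat sera. Il6 fell by 1.38 (SE 0.24) in MS+ (limma adjusted p = 0.000471; 0.0682 without the block) and by 0.76 (SE 0.24) in MS- (adjusted p = 0.0332). The MS- call did not stand without the block (0.302). It was also lost on leaving out FBS replicate 2 (-0.68, adjusted p = 0.0928) or either MS- library (-0.46, adjusted p = 0.473 for replicate 1, and -1.06, adjusted p = 0.0614 for replicate 2). MS+ against MS- gave -0.62 (adjusted p = 0.116), and this came largely from culture RA2 (-1.08, against -0.15 in RA1).

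Il6r, the receptor chain that binds interleukin-6, lay at 3.60 and 0.995 CPM in FBS, 4.94 and 4.70 CPM in MS-, and 4.14 and 4.59 CPM in MS+. It rose by 0.94 (SE 0.30) in MS- against FBS (limma adjusted p = 0.0378; 0.226 without the block), but without FBS replicate 2 the change was 0.32 (adjusted p = 0.544), and without MS- replicate 1 or 2 the adjusted p was 0.117 or 0.391. Il6st, the signalling chain shared by the family, lay at 445 and 320 CPM in FBS, 309 and 307 CPM in MS-, and 382 and 337 CPM in MS+. It fell by 0.29 (SE 0.10) in MS- (adjusted p = 0.0485; 0.358 without the block); without FBS replicate 1 this was -0.10 (adjusted p = 0.659), and without MS- replicate 1 or 2 the adjusted p was 0.689 or 0.0792. The change itself was larger with some of these libraries left out, at 1.18 for Il6r without MS- replicate 1 and -0.45 for Il6st without MS- replicate 2.

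Lif, which keeps stem cells undifferentiated and acts in inflammation, had its highest library in MS-. It lay at 10.8 and 10.3 CPM in FBS, 19.8 and 12.8 CPM in MS-, and 11.2 and 7.16 CPM in MS+. It fell by 0.77 (SE 0.19) in MS+ against MS- (limma adjusted p = 0.019), by 0.77 in culture RA1 and 0.76 in culture RA2. The call was lost without the block (0.269), and also when MS- replicate 1 (-0.63, adjusted p = 0.366), MS- replicate 2 (-0.90, adjusted p = 0.142) or MS+ replicate 2 (-0.64, adjusted p = 0.0819) was left out. Against FBS, MS- gave 0.55 (limma adjusted p = 0.0532) and MS+ gave -0.21 (adjusted p = 0.446). The MS- change passed with a filter at 5 CPM, with limma-voom and with edgeR, each with the block, but not without the block.

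Il11, a fibroblast-derived ligand of the same family, did not pass in any comparison, at 2.29 to 4.41 CPM over the 6 libraries. Its receptor Il11ra1 (24.7 to 41.9 CPM, overlapping Ccl27 in the annotation), Osmr, the oncostatin M receptor (14.4 to 36.3 CPM), and Lifr (0.734 to 2.17 CPM) did not pass either. Osmr was at 14.4 to 17.2 CPM in culture RA1 and 26.2 to 36.3 CPM in culture RA2.

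Receptors of the interleukin-1 family were raised in part. Il1rl2, the interleukin-36 receptor, lay at 74.6 and 55.4 CPM in FBS, 99.2 and 95.8 CPM in MS-, and 112 and 96.7 CPM in MS+, with FBS below both rat sera. It rose by 0.69 (SE 0.10) in MS+ (limma adjusted p = 0.000155; 0.0408 without the block) and by 0.59 (SE 0.10) in MS- (adjusted p = 0.000782; 0.0892 without the block), the latter lost without MS- replicate 2 (0.46, adjusted p = 0.0963). Il1r1, the signalling receptor for interleukin-1, lay at 22.6 and 32.2 CPM in FBS, 34.8 and 41.9 CPM in MS-, and 37.3 and 33.2 CPM in MS+. It rose by 0.49 (SE 0.15) in MS- (adjusted p = 0.0301; 0.208 without the block) and gave 0.37 in MS+ (adjusted p = 0.0739). Il1r1 missed the threshold when FBS replicate 1 was left out (0.27, adjusted p = 0.373), and likewise for MS- replicate 1 (0.54, adjusted p = 0.19) and MS- replicate 2 (0.44, adjusted p = 0.308).

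Il1rap, the chain that Il1r1, Il1rl1 and Il1rl2 share for signalling, was higher in MS- than in either other medium. It lay at 4.26 and 6.13 CPM in FBS, 11.0 and 13.4 CPM in MS-, and 7.57 and 5.69 CPM in MS+, where MS- did not overlap the others. It rose by 1.10 (SE 0.23) in MS- against FBS (limma adjusted p = 0.00271; 0.053 without the block and 0.0983 without MS- replicate 2) and fell by 0.79 (SE 0.23) in MS+ against MS- (adjusted p = 0.0365). The second call was lost without the block (0.226), and also when MS- replicate 1 (-0.90, adjusted p = 0.239), MS- replicate 2 (-0.68, adjusted p = 0.391) or MS+ replicate 2 (-0.44, adjusted p = 0.365) was left out. A second Il1rap transcript row, which overlaps the one used, lay at 1.31 to 2.38 CPM with 19.6% of the reads of the symbol, and gave 0.40 in MS- against FBS (limma adjusted p = 0.347) and -0.09 in MS+ against MS- (adjusted p = 0.888).

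Il1rl1, the gene of the interleukin-33 receptor ST2, lay at 1529 and 1046 CPM in FBS, 1381 and 1036 CPM in MS-, and 1723 and 1242 CPM in MS+. The libraries of RA1 were above those of RA2 in every medium, and the groups overlapped. It rose by 0.29 (SE 0.08) in MS+ against MS- (limma adjusted p = 0.0363), by 0.32 and 0.26 in the 2 cultures. The call was lost without the block (0.649) and without any of the 4 libraries compared (0.24 to 0.34; adjusted p = 0.535 and 0.339 without MS- replicates 1 and 2, 0.0863 and 0.128 without MS+ replicates 1 and 2). The row used (rn4 chr9:39609187-39617321, plus strand) held 96.4% of the reads of the symbol. The other Il1rl1 row, a longer transcript at chr9:39577879-39624781, lay at 47.8 and 41.0 CPM in FBS, 58.2 and 46.5 CPM in MS-, and 56.6 and 44.8 CPM in MS+, and gave -0.05 in MS+ against MS- (adjusted p = 0.847). The 2 transcripts overlap, so reads they share could be lost. The row used lies within the span of the longer one. Which form of the protein each encodes was not examined, so the level of the row used need not be that of the signalling receptor. Il33, the ligand, had 18 reads over the 6 libraries and Il18r1 lay at 1.16 to 3.29 CPM without passing.

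Il17ra and Il3ra also rose in both rat sera. Il17ra, the common receptor chain for interleukin-17 cytokines, lay at 45.0 and 70.1 CPM in FBS, 87.4 and 80.4 CPM in MS-, and 97.3 and 104 CPM in MS+, with no overlap between groups. It rose by 0.83 (SE 0.14) in MS+ (limma adjusted p = 0.000323; 0.0461 without the block) and by 0.57 (SE 0.14) in MS- (adjusted p = 0.00749). The MS- call was lost without the block (0.163), without FBS replicate 1 (0.25, adjusted p = 0.243) and without MS- replicate 1 (0.33, adjusted p = 0.338). Il3ra, the interleukin-3 receptor, lay at 14.4 and 9.45 CPM in FBS, 25.4 and 15.2 CPM in MS-, and 22.3 and 23.9 CPM in MS+. It rose by 0.92 (SE 0.19) in MS+ (adjusted p = 0.0017; 0.0867 without the block) and by 0.70 (SE 0.19) in MS- (adjusted p = 0.0144; 0.21 without the block and 0.354 without MS- replicate 1).

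Il34, a second ligand of the Csf1 receptor, lay at 2.62 and 2.16 CPM in FBS, 2.01 and 1.81 CPM in MS-, and 1.62 and 0.184 CPM in MS+, the last of these below the floor. It fell by 0.94 (SE 0.31) in MS+ against FBS (limma adjusted p = 0.0356), a call lost without the block (0.181), without MS+ replicate 2 (-0.44, adjusted p = 0.431) and without FBS replicate 2 (-0.73, adjusted p = 0.18). Csf1 itself lay at 278 and 260 CPM in FBS, 215 and 319 CPM in MS-, and 182 and 268 CPM in MS+, and passed in no comparison (-0.28 in MS+ against FBS, adjusted p = 0.105). Its change from FBS to MS+ was -0.61 in culture RA1 and 0.04 in culture RA2.

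The other tested interleukin genes did not pass in any comparison: Il15, Il10rb, Il13ra1, Il17rc, Il17re, Il28ra, Il2rg, Il4ra and Il18bp. Il10rb, the shared chain of the interleukin-10 and lambda interferon receptors, lay at 47.9 to 54.0 CPM over the 6 libraries. Il18bp gave -0.66 (SE 0.28) in MS+ against FBS (limma adjusted p = 0.0967).

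In the TNF superfamily no tested ligand passed. Tnfsf12 (TWEAK) lay at 28.7 to 40.9 CPM, while Tnfsf13 and Tnfsf15 stayed under 2.2 CPM in every library. Of the receptors, Tnfrsf11b (osteoprotegerin, a decoy that binds RANKL and TRAIL) rose against FBS. It lay at 40.3 and 111 CPM in FBS, 147 and 145 CPM in MS-, and 218 and 176 CPM in MS+, with FBS replicate 1 far below the other 5 libraries. It rose by 1.53 (SE 0.25) in MS+ (limma adjusted p = 0.000327; 0.0637 without the block) and by 1.11 (SE 0.25) in MS- (adjusted p = 0.00541; 0.183 without the block), both against FBS. The rise in MS+ was 2.41 in culture RA1 and 0.66 in culture RA2, and in MS- 1.84 and 0.38. DESeq2 with the block called neither (adjusted p = 0.104 and 0.436). The MS- rise missed the threshold when FBS replicate 1 was left out (0.31, adjusted p = 0.0626), and so with MS- replicate 1 (0.82, adjusted p = 0.197). Tnfsf11 (RANKL) and Tnfsf10 (TRAIL) themselves had no read.

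Tnfrsf10b, the death receptor for TRAIL, lay at 18.8 and 24.7 CPM in FBS, 13.9 and 19.7 CPM in MS-, and 10.6 and 14.5 CPM in MS+. Within each culture FBS was highest and MS+ lowest, and it fell by 0.75 (SE 0.16) in MS+ against FBS (limma adjusted p = 0.00215, and 0.101 without the block). DESeq2 with the block did not call this fall (adjusted p = 0.0543). Tnfrsf12a (Fn14, the receptor of Tnfsf12) lay at 309 and 263 CPM in FBS, 309 and 230 CPM in MS-, and 273 and 213 CPM in MS+. It fell by 0.24 (SE 0.08) in MS+ against FBS (adjusted p = 0.0405), a small change that was lost without the block (0.435) and on leaving out any single library except FBS replicate 1 (-0.25 to -0.16; adjusted p = 0.0766 to 0.286).

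Tnfrsf21 (death receptor 6) lay at 6.06 and 1.99 CPM in FBS, 1.65 and 0.723 CPM in MS-, and 2.52 and 1.47 CPM in MS+. It fell by 1.10 (SE 0.28) in MS- against FBS (limma adjusted p = 0.0116; 0.232 without the block), and the adjusted p was 0.221 with FBS replicate 1 left out (-0.77) and 0.171 or 0.0715 with MS- replicate 1 or 2 left out. Tnfrsf1a, the ubiquitous TNF receptor, stayed at 144 to 180 CPM over the 6 libraries and passed in no comparison (0.06, -0.11 and 0.17; adjusted p = 0.638, 0.422 and 0.243). Tnfrsf1b and Tnfrsf26 did not pass either.

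**Figure D3:**
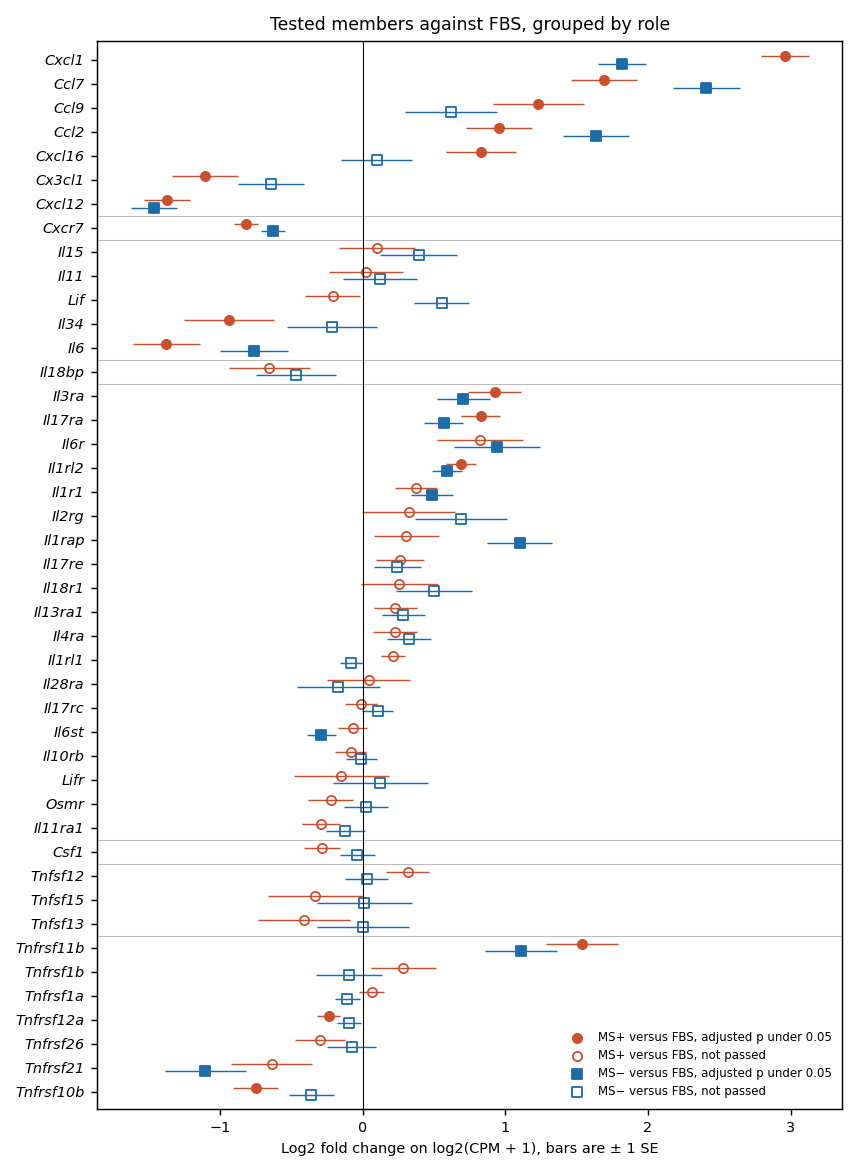
Log2 fold change on log2(CPM + 1) against FBS (horizontal axis) of the 44 tested members (vertical axis, grouped by role), for MS+ (circles) and MS- (squares); bars are 1 SE and filled points passed an adjusted p under 0.05. Cxcl1 lies farthest to the right in MS+ (2.96) and Ccl7 in MS- (2.41), and Cxcl12 lies at -1.37 and -1.46; both comparisons use the same FBS libraries.

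The comparison of MS+ with MS- asked what the serum of stimulated animals changed relative to that of untreated ones, with the day of drawing not separable from stimulation. Of the 44 tested members, Cxcl1 and Il1rl1 were higher and Il1rap and Lif lower, with changes of 1.14, 0.29, -0.79 and -0.77. Without the culture as a block limma called none of them (adjusted p = 0.181, 0.649, 0.226 and 0.269), nor did edgeR without the culture term. DESeq2 with the block did not call Il1rl1, Il1rap or Lif. Ccl2 and Ccl7, lower in MS+, passed with limma-voom and with edgeR, each with the block. By the thresholds like those of the study, Cxcl1 alone passed. The median change of the members was -0.12, beside -0.0058 over all rows.

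**Figure D4:**
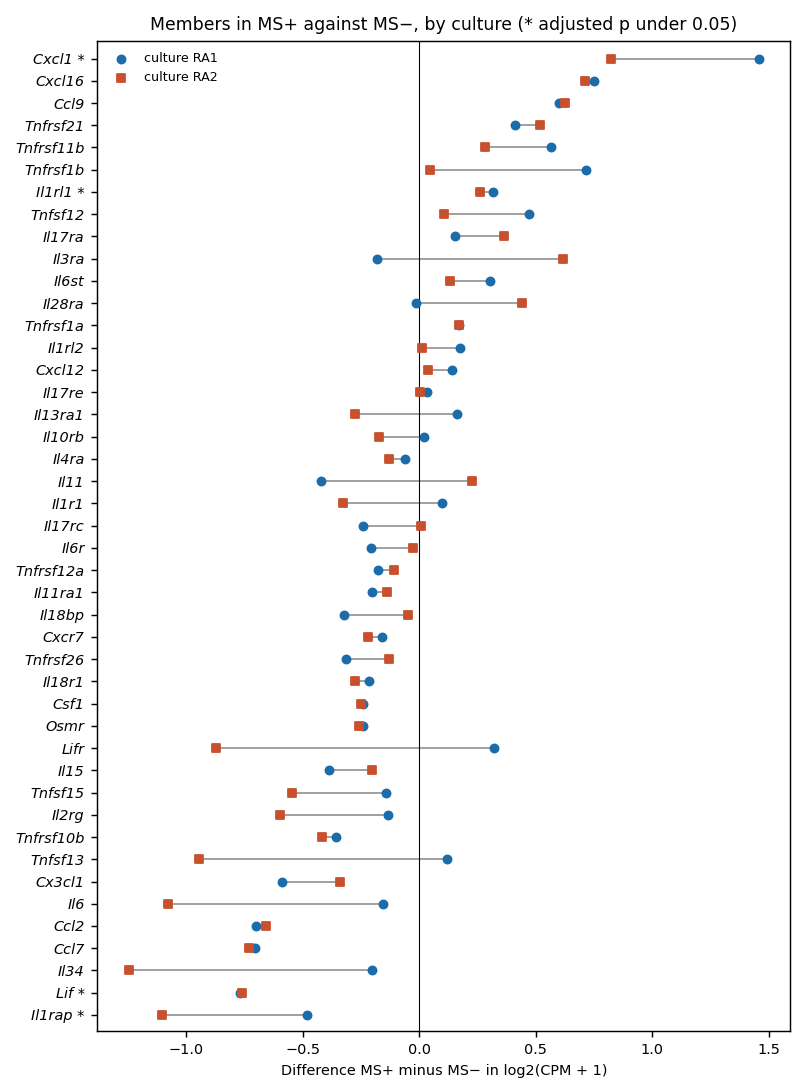
Difference MS+ minus MS- in log2(CPM + 1) (horizontal axis) of the 44 tested members (vertical axis, ordered by fitted change), with culture RA1 as circles and RA2 as squares joined by a line; an asterisk marks an adjusted p under 0.05. Cxcl1 is highest (1.46 and 0.82), Lif lies at -0.77 and -0.76, and for several members, such as Lifr (0.32 and -0.87), the cultures lie on opposite sides of 0.

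Related genes whose names fall outside the symbol patterns were read from 3 lists. Of 46 other cytokine, chemokine and TNF family genes, 33 were in the table and 10 were tested. In MS+ against FBS 4 of these were higher and 3 lower, in MS- against FBS 2 were higher and 3 lower, and in MS+ against MS- 2 were higher and 0 lower. These are 7, 5 and 2 of the 10, beside 28.2%, 20.5% and 10.1% of all rows. Without the block 3, 2 and 0 passed, beside 9.61%, 4.81% and 0.0204% of all rows. Ctf1 (cardiotrophin-1) lay at 9.33 and 12.1 CPM in FBS, 11.9 and 15.7 CPM in MS-, and 22.2 and 25.9 CPM in MS+, and rose in MS+ against MS- by 0.76 (limma adjusted p = 0.00715; 0.195 without the block). Clcf1 rose by 0.69 in the same comparison (adjusted p = 0.0127; 0.392 without the block). Cntf, a further gp130 ligand, lay at 4.75 and 9.78 CPM in FBS and 1.44 and 2.39 CPM in MS+, and fell by 1.45 in MS+ against FBS.

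Of 23 JAK-STAT genes, which carry the signal of interleukin receptors, 17 were tested: 1 was higher and 4 lower in MS+ against FBS, 2 higher and 3 lower in MS- against FBS, and none passed in MS+ against MS-. The shares were 29.4%, 29.4% and 0%, beside 28.2%, 20.5% and 10.1% of all rows. Without the block 3, 2 and 0 passed, beside 9.61%, 4.81% and 0.0204% of all rows. Socs3, the feedback inhibitor of gp130 signalling, lay at 5.40 and 7.46 CPM in FBS, 1.65 and 1.27 CPM in MS-, and 1.44 and 1.65 CPM in MS+, and fell by 1.59 (SE 0.27) in MS- and 1.53 (SE 0.27) in MS+. Socs2, an inhibitor of growth hormone signalling, rose by 1.11 and 1.38 in MS- and MS+ against FBS. Without the block, the Socs2 change in MS- did not pass (limma adjusted p = 0.111).

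Of 28 adaptors of interleukin-1 and TNF receptors, 23 were tested: 5 were higher and 1 lower in MS+ against FBS, 3 higher and 0 lower in MS- against FBS, and 1 higher in MS+ against MS-. The shares of 26.1%, 13.0% and 4.35% were below those of all rows (28.2%, 20.5% and 10.1%). Without the block 1, 1 and 0 passed, beside 9.61%, 4.81% and 0.0204% of all rows. Traf3, which restrains non-canonical NF-kappaB signalling, lay at 79.2 and 73.4 CPM in FBS, 110 and 114 CPM in MS-, and 168 and 154 CPM in MS+, with no overlap between groups. It rose by 1.07 (SE 0.09) in MS+ against FBS, by 0.55 in MS- against FBS and by 0.52 in MS+ against MS- (limma adjusted p = 0.00229 for the last, and 0.126 without the block). Traf4 rose by 0.70 in MS- and 0.60 in MS+ against FBS and Irak2, a kinase below Myd88, fell by 0.59 in MS+. Neither passed without the block.

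Some members differed between the 2 cultures in every medium. For 9 of the 44 tested members (20.5%), the 3 libraries of a culture did not overlap those of the other, beside 13.5% of all tested rows. Il17re, a receptor of interleukin-17C, lay at 8.18 to 8.83 CPM in culture RA1 and 23.2 to 31.6 CPM in culture RA2. Osmr, Il11, Il11ra1, Tnfrsf1b and Tnfrsf26 were likewise higher in RA2, and Il1rl1, Il4ra and Tnfrsf12a were higher in RA1. With 2 cultures these values describe those cultures.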

How the data were processed

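The submitters' notes name Bowtie2 2.1.0, HTSeq 0.5.4p3 and rat build rn4. The authors counted reads per transcript and divided the counts by TMM-scaled library sizes; this normalized signal, in CPM, is what they deposited. Overlapping transcripts lose shared reads under such counting, and strand use was not given in the sources used here. Whole reads were recovered for 100% of values (tolerance 1e-06), 5463316 to 5991889 per library, and the count tests used them. Rows with 1 CPM in both libraries of a group (9820 of 17221) were tested on log2(CPM + 1) with limma 3.58.1 in R 4.3.3 (lmFit, eBayes with trend; two-sided), with medium and culture as terms over all 6 libraries. This left 2 residual degrees of freedom per row, and eBayes drew most of the error estimate from all tested rows (prior degrees of freedom 13.4). A row was called at p under 0.05 after Benjamini-Hochberg adjustment. Group values are mean ± SD of 2 libraries.

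Culture is a block, since per the labels each medium has a library of RA1 and of RA2, and the cultures were divided over the media; no label says that each is 1 rat. The difference between cultures correlated across rows by 0.49 to 0.62 between media, so the numbers pair the libraries. Replicate libraries differed by more than sampling noise (chi-square per degree of freedom 13.6 to 15.1).

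Members described in full were those called with the same direction in both cultures (up to 8 largest rises and 8 largest falls per comparison), the 5 of highest mean CPM and 20 set genes. For the 3 lists outside the members, the largest called changes were named; some genes of these lists are not reported here. Members and lists were chosen with earlier results of these data known. Alternatives used edgeR 4.0.16, DESeq2 1.42.0 and limma-voom on the recovered reads, other filters, pseudocounts and scalings, and left out each library; edgeR without the culture term, and setting members with no read at their floor, were chosen after seeing the data. The script was tested on simulated data. Of the 44 tested members, 41 matched RefSeq (GRCr8) symbols and 34 had a promoter entry. GC content was not analysed.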

Additional observations from a re-analysis of the deposited data

Results flagged for a closer look

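For 4 members the effect of rat serum relative to FBS differed between MS+ and MS-, by the limma test of MS+ against MS- with the culture as a block. The difference was 1.14 for Cxcl1, 0.29 for Il1rl1, -0.79 for Il1rap and -0.77 for Lif, with adjusted p = 0.000569, 0.0363, 0.0365 and 0.019. The direction was the same in both cultures for each, which a blocked test with 2 cultures largely fixes in advance. None of the 4 passed without the block, and DESeq2 with the block did not call Il1rap, Il1rl1 or Lif. The share of the 4 among the tested members (9.09%) lay near that of all rows (10.1%). Groups of 2 libraries are too small for a test of single outlying libraries.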

How the results depend on the processing

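The counts of calls depended on the culture as a replicate block, among other settings. In MS+ against FBS, 16 members passed with it and 6 without it, 6 with edgeR without the culture term and 6 by the study's thresholds. In MS- against FBS, 15 passed with it and 4 without it, 8 without the filter, 6 with DESeq2, 4 with edgeR without the culture term and 7 by the study's thresholds; with single libraries left out it was 7 to 18, lowest without MS- replicate 1 (7) and MS- replicate 2 (8). In MS+ against MS-, 4 passed with it and 0 without it, 1 without the filter, 1 with DESeq2, 0 with edgeR without the culture term, 2 without rows of uncertain counting and 1 by the study's thresholds; with single libraries left out it was 0 to 11: 0 and 1 when MS- replicate 1 or 2 was dropped, and 11 when an FBS library was. Of the calls in MS+ against FBS, DESeq2 with the block lost Cxcl16, Il34, Tnfrsf10b, Tnfrsf11b and Tnfrsf12a. Of those in MS- against FBS, it lost Il17ra, Il1r1, Il1rap, Il3ra, Il6, Il6r, Il6st, Tnfrsf11b and Tnfrsf21. The cause of these shifts was not tested. The median log2 change of the members in MS+ against FBS was 0.051, and 0.017 without the filter, 0.21 with a filter at 5 CPM, 0.0094 with library totals, 0.079 with limma-voom, 0.071 with edgeR, 0.078 with edgeR without the culture term and 0.041 without uncertain rows; with single libraries left out it was -0.0040 to 0.061. In MS- against FBS it was 0.061, and about 0 without the filter, 0.026 with a filter at 5 CPM, 0.034 with library totals, 0.11 with a pseudocount of 0.1 and 0.10 without uncertain rows; with single libraries left out it was 0.047 to 0.14. In MS+ against MS- it was -0.12, and -0.138 with a pseudocount of 0.1, 0.0019 without the filter, -0.0959 with a filter at 5 CPM, -0.111 with DESeq2 size factors, -0.134 with library totals, -0.127 with limma-voom and -0.126 with DESeq2; with single libraries left out it was -0.141 to -0.0418. For single members, 28 described members in 3 comparisons gave 84 results, and the 16 alternatives left 1112 values on the same side of the threshold in the same direction, 131 no longer past it, 46 newly past it and 37 with the sign turned; no result past the threshold in either fit turned. With single libraries left out, the log2 change of these members spanned 0, none past the threshold with all libraries: in MS+ against FBS, Csf1 -0.61 to 0.046, Il11 -0.14 to 0.19, Il1rap -0.049 to 0.66, Il6st -0.26 to 0.12, Lif -0.47 to 0.046, Lifr -0.72 to 0.42 and Tnfrsf1a -0.021 to 0.14. In MS- against FBS, Csf1 -0.37 to 0.29, Cxcl16 -0.31 to 0.50, Il11 -0.20 to 0.44, Il34 -0.50 to 0.069, Lifr -0.20 to 0.44 and Osmr -0.20 to 0.25. In MS+ against MS-, Il11 -0.42 to 0.23, Il1r1 -0.38 to 0.16, Il1rl2 -0.039 to 0.23, Il3ra -0.14 to 0.58, Il6r -0.49 to 0.26, Lifr -0.85 to 0.30 and Tnfrsf11b -0.084 to 0.93. Il11 in MS+ against FBS was -0.012 with library totals, and Osmr in MS- against FBS was -0.0061 with library totals, -0.046 with limma-voom, -0.038 with edgeR and -0.0069 with DESeq2, each with the block, and -0.067 with edgeR without the culture term. Depth limits the 106 members that did not pass 1 CPM, for which 3 reads is 0.491 to 0.551 CPM.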

Other observations

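Among members below 1 CPM, 13 had more than 3 reads in some library, and their reads are given here with no test. The ligands Il7, a lymphocyte growth factor, and Il17b had 24 reads each over the 6 libraries, Cxcl17 had 22, Cxcl13 had 19, Il33 had 18, Il16 had 15, Cxcl3 had 14, Ccl27 had 13 and Il12a had 12. Of the receptors, Tnfrsf25 had 28 reads, Cxcr3 had 16, Il7r had 14 and Il27ra had 12. Cxcr3, which binds interferon-induced chemokines and marks activated T cells, had 6 and 5 of its reads in MS+, 1 and 1 in MS- and 1 and 2 in FBS. Of the 6 lymphocyte markers measured, 4 had no read in any library, and the list summed to 0 to 0.829 CPM. The cells behind the Cxcr3 reads were not tested.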
